A study of Mus musculus with 8 samples.

Results

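The genes described here are the cytosolic ribosomal protein genes, the 79 genes that encode the protein parts of the ribosome outside the mitochondria, with a few close paralogs. They were picked by name from the genes listed in both deposited tables. A member is named Rpl or Rps with a number, with at most a short suffix, or is Rpsa, Rplp0, Rplp1, Rplp2 or Fau. Ribosomal S6 kinases and names ending in -ps or -rs were left out. Genes on chromosomes X and Y were left out too, which alone took the name matches from 83 to 79. The tables share 13689 genes, and 15377 genes stand in at least 1 of them. By role the members are 31 proteins of the small subunit, 40 of the large subunit, the 3 proteins of the large subunit's stalk, and 5 paralogs (Rpl3l, Rpl7l1, Rpl22l1, Rpl39l and Rps27l). The other 74 genes are called core genes below.

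The ribosome needs its proteins in equal numbers, and their mRNAs are among the most abundant of any cell. In mammals most of these mRNAs begin with a C and a run of pyrimidines, called the 5' terminal oligopyrimidine (TOP) tract, through which the kinase mTORC1 and the TOP-binding protein Larp1 control their translation as a group. Their amount is known to follow growth and differentiation, and a paralog can stand in for its parent protein in some tissues.

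RNA was sequenced from mouse bone marrow cells (C57BL/6) grown for 7 days with either of the growth factors M-CSF or GM-CSF. M-CSF at 10 ng/mL gives bone marrow-derived macrophages (BMDM), and GM-CSF at 20 ng/mL gives bone marrow-derived dendritic cells (BMDC). The knockouts were Lyz2-Cre;Trpv2fl/fl, in which Cre made from the Lyz2 locus of myeloid cells removes the floxed part of Trpv2, a gene for a calcium-permeable channel. The controls were Trpv2fl/fl without Cre. The 4 groups are thus BMDM knockout, BMDM control, BMDC knockout and BMDC control, with 2 libraries each. All of them carry floxed Trpv2, and the Cre allele goes with the loss of Lyz2 in the knockouts, so the 2 losses cannot be told apart. The series gives 2 mice per genotype and kind of culture. The sources used here do not say whether a mouse gave both cultures, and p-values measure the spread between these libraries. The comparisons ask how far the ribosomal protein mRNAs differ between knockout and control in each cell type, and between the cell types.

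Each library held 15790185 to 19463457 counts. Trpv2 had 26.4 and 29.2 CPM (counts scaled to the library total) in BMDM knockouts, against 273 and 277 CPM in BMDM controls, and 35.5 and 56.3 CPM in BMDC knockouts, against 181 and 241 CPM in BMDC controls. The 10 macrophage markers were all read in every library, and 9 of the 11 dendritic cell markers were listed in the BMDM. Of the BMDC libraries, knockout 2 stood apart. Across the 79 members, the Spearman correlation of levels was 0.947 to 0.971 in the 7 pairs of libraries with it and 0.977 to 0.998 in the 21 pairs without it. Its interferon-stimulated genes summed to 13146 CPM, against 612 CPM in BMDC knockout 1 and 1631 and 1031 CPM in the BMDC controls. Results that rest on this library are given with and without it.

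The 5' ends of the members show the shared feature of the group, so a few are printed here. Of the 79 members, 59 matched a gene in a RefSeq table of start sites on mouse build GRCm38.p6, with 71 windows of 250 bases before the start and 50 after it. A C followed by at least 4 bases that are each C or T, beginning exactly at the start, was found in 19.7% of the member windows and in 2.51% of all 32851 windows in the table. With a start of the run allowed up to 3 bases away, the shares were 38% of member windows and 11.5% of all windows. The 6 core genes of highest level with such a run are shown first, then 3 paralogs. Each line holds 15 bases before the annotated start and 15 after it, 5' to 3', with capitals from the C nearest the start that opens such a run to the run's last base.
Fau (chr19:6057932-6057961, plus strand): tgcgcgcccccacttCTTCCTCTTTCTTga
Rps6 (chr4:86857353-86857382, minus strand): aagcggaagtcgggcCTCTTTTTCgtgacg
Rps23 (chr13:90923107-90923136, plus strand): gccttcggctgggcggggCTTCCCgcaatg
Rps9 (chr7:3704026-3704055, plus strand): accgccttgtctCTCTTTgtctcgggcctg
Rpl7a (chr2:26910792-26910821, plus strand): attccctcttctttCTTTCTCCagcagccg
Rpl31 (chr1:39367836-39367865, plus strand): cttcctcctcgcCTCCCCgtgacccggaag
Rpl22l1 (chr3:28805493-28805522, plus strand): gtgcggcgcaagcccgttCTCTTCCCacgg
Rps27l (chr9:66946071-66946100, plus strand): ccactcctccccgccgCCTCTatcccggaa
Rpl7l1 (chr17:46782642-46782671, minus strand): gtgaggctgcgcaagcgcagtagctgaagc
In Fau and Rps6 that C is the first base after the annotated start. Just before it stand further pyrimidines in Fau and a single C in Rps6. None of the 7 paralog windows had such a run from the first base after the start, and that of Rpl7l1 had no such run within 3 bases. The motif CCGGAAG, searched on both strands of the window, stood in 36.6% of member windows and in 8.86% of all windows, and TATAAA in 7.04% of member windows and in 13.6% of all windows. A match is a description of the letters only. The 24 core genes with a run within 3 bases had a median log2 fold change of 0.99 for BMDM over BMDC in the controls, against 0.97 in the 30 core genes with a window and no such run.

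Levels per length were compared as FPKM, the counts per kilobase of the deposited gene length, scaled to the total of the library. The median member stood at a mean of 188 FPKM over the 8 libraries, against 3.52 FPKM for all 13689 genes. Of the 79 members, 59 had a mean over 100 FPKM and 60 were among the 500 genes with the highest mean. Rplp1, an acidic protein of the stalk that binds elongation factors, led them and ranked 17 among all genes. It had 2489 and 2627 FPKM in BMDM knockouts, 2965 and 2409 in BMDM controls, 974 and 2045 in BMDC knockouts, and 1073 and 1343 in BMDC controls. By FPKM every BMDC library lay below every BMDM library, with BMDC knockout 2 the nearest, but on the scale of TMM-normalised CPM knockout 2, at 1250 CPM, lay among the BMDM libraries, at 1207 to 1629 CPM. Rplp0, the stalk's base, followed with 1235 and 1367 FPKM in BMDM knockouts, 1476 and 1303 in BMDM controls, 716 and 1001 in BMDC knockouts, and 804 and 909 in BMDC controls. Rps15 came next with a mean of 948 FPKM, then Rps3a1 with 795 and Rpl19 with 771.

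The third stalk gene, Rplp2, stood lower than its partner Rplp1, at 187 and 208 FPKM in BMDM knockouts, 239 and 190 in BMDM controls, 119 and 249 in BMDC knockouts, and 146 and 152 in BMDC controls. Both genes that encode a ribosomal protein joined to a ubiquitin-type protein were well expressed. Fau had 641 and 707 FPKM in BMDM knockouts, 834 and 640 in BMDM controls, 372 and 929 in BMDC knockouts, and 425 and 459 in BMDC controls. Rps27a, which carries ubiquitin itself, had 279 and 290 FPKM in BMDM knockouts, 345 and 278 in BMDM controls, 139 and 232 in BMDC knockouts, and 142 and 173 in BMDC controls. In each of these genes the highest BMDC level was that of knockout 2. Rpsa, a small subunit protein also known as a laminin receptor, had 367 and 422 FPKM in BMDM knockouts, 454 and 380 in BMDM controls, 258 and 423 in BMDC knockouts, and 242 and 316 in BMDC controls.

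**Figure D1:**
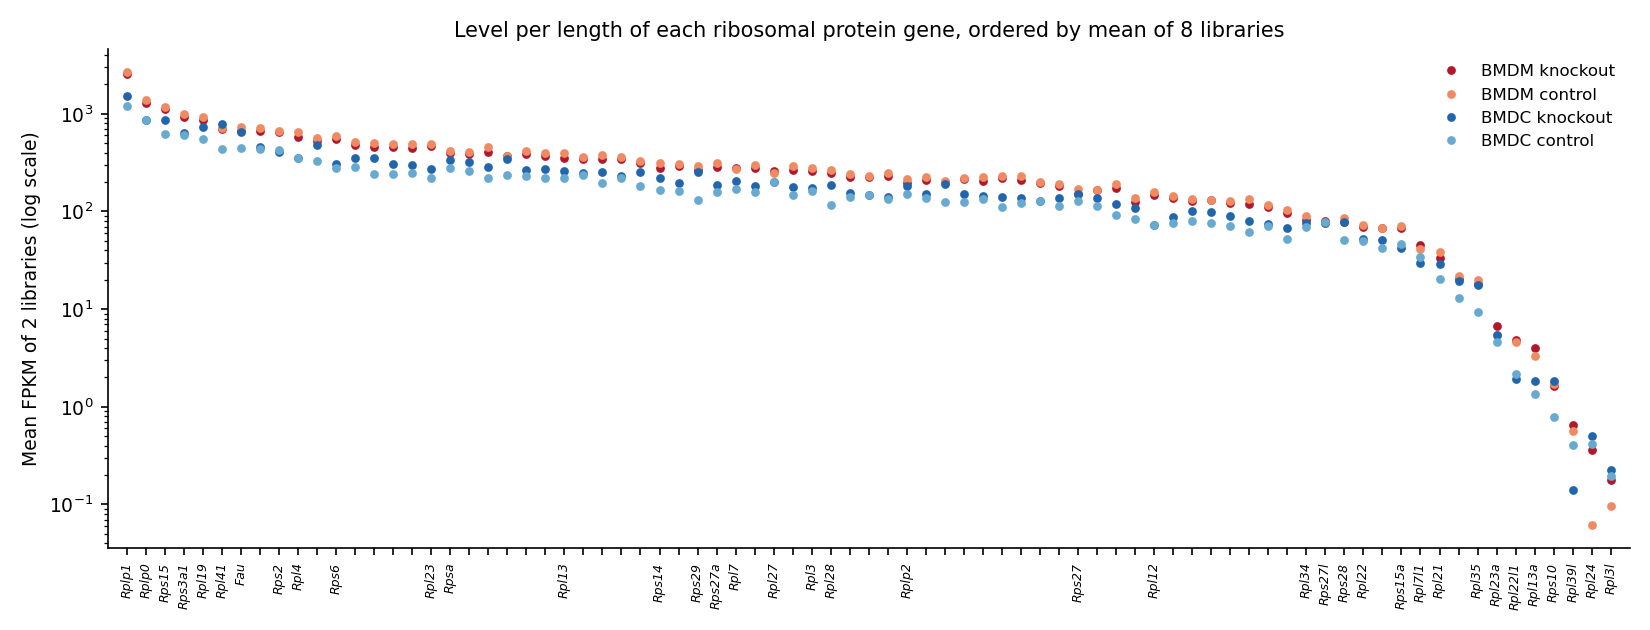
The plot of levels by gene gives the mean FPKM of 2 libraries (log axis) for each of the 79 members in the 4 groups, ordered by the mean of the 8 libraries, with names for genes described in the text. Most points lie over 100 FPKM with the BMDM groups above the BMDC control group, and 7 genes at the right end have a mean under 10 FPKM.

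Those 7 genes were Rpl23a (5.6 FPKM), Rpl22l1 (3.4), Rpl13a (2.62), Rps10 (1.5), Rpl39l (0.441), Rpl24 (0.333) and Rpl3l (0.174). For the core genes among them, part of the gene lies inside another annotated gene on the same strand in GENCODE M21. This held for 47% of the exon bases of Rpl24 (with Gm28037), 35.4% of those of Rpl13a and 20.6% of those of Rps10 (with RPS10-NUDT3), and 2.6% of those of Rpl23a. The sources used here do not say how reads in such overlaps were counted, and its part in these levels was not tested. Many members also resemble other genes: 46 of the 79 shared over 50% of their 50-base stretches with transcripts of another gene, while Rpl3l and Rpl39l were among the 3 that shared none. Levels of members with such copies are therefore uncertain, although across the 79 genes the shared percentage and the mean FPKM had a Spearman correlation of 0.08. The deposited gene length counts every annotated exon. With the length of the principal transcript instead, a choice made after seeing the data, the median member stood at 518 on the same scale per transcript length, and the order of the genes correlated with that by FPKM at 0.81.

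The paralogs were read far less than the core genes, except Rps27l and Rpl7l1. Rps27l, the paralog of Rps27 and a target of p53, had 80.3 and 78 FPKM in BMDM knockouts, 80.9 and 70 in BMDM controls, 63.1 and 89.5 in BMDC knockouts, and 79.3 and 77.8 in BMDC controls. Its groups overlapped in every comparison. Rps27 itself had 154 and 149 FPKM in BMDM knockouts, 192 and 151 in BMDM controls, 91.7 and 214 in BMDC knockouts, and 117 and 138 in BMDC controls. Rpl7l1, a paralog of Rpl7 with a role in making the large subunit, had 45.4 and 45.5 FPKM in BMDM knockouts, 41.1 and 40.9 in BMDM controls, 31.1 and 28.3 in BMDC knockouts, and 34.7 and 34.4 in BMDC controls. All 4 BMDM libraries were above all 4 BMDC libraries. Its parent Rpl7 had 280 and 272 FPKM in BMDM knockouts, 284 and 265 in BMDM controls, 165 and 248 in BMDC knockouts, and 159 and 184 in BMDC controls. Rpl22l1, the paralog of Rpl22, had 5.41 and 4.27 FPKM in BMDM knockouts, 5.42 and 3.9 in BMDM controls, 2.3 and 1.57 in BMDC knockouts, and 1.73 and 2.63 in BMDC controls, and again the 2 cell types did not overlap. Rpl22 was present at 69.7 and 69.8 FPKM in BMDM knockouts, 78.9 and 66.7 in BMDM controls, 43.1 and 61.1 in BMDC knockouts, and 47.5 and 51.4 in BMDC controls. The muscle paralog Rpl3l had 1 to 9 reads in each library, while its parent Rpl3 had 142 to 285 FPKM. Rpl39l, best known from the testis, had 8 and 10 reads in BMDM knockouts, 4 and 11 in BMDM controls, 3 and 1 in BMDC knockouts, and 0 and 13 in BMDC controls. A count of 0 in BMDC control 1 allows up to 3 counts, or 0.178 CPM.

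As a group, the members took 3.91% and 4.21% of all counts in BMDM knockouts, against 4.7% and 3.93% in BMDM controls. They took 2.11% and 3.73% in BMDC knockouts, against 2.29% and 2.64% in BMDC controls. The 95% Wilson intervals of these shares were at most 0.0208 percentage points wide, and cover counting error only. The means were 4.06% ± 0.212 in BMDM knockouts, 4.32% ± 0.545 in BMDM controls, 2.92% ± 1.14 in BMDC knockouts and 2.46% ± 0.248 in BMDC controls (SD, n = 2 each). In both cell types knockout and control overlapped. The totals include Lyz2, which had 242 and 274 CPM in BMDM knockouts, against 63603 and 54968 CPM in BMDM controls. In the BMDC it had 103 and 202 CPM in knockouts, against 17453 and 19759 CPM in controls. The part of Lyz2 alone in these shares was not tested. The BMDM control share was 1.75 times the BMDC control share, with no overlap, and the BMDM knockout share 1.39 times the BMDC knockout share, also with no overlap. In bulk RNA, a smaller number of cells of a type and less RNA per cell cannot be told apart.

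**Figure D2:**
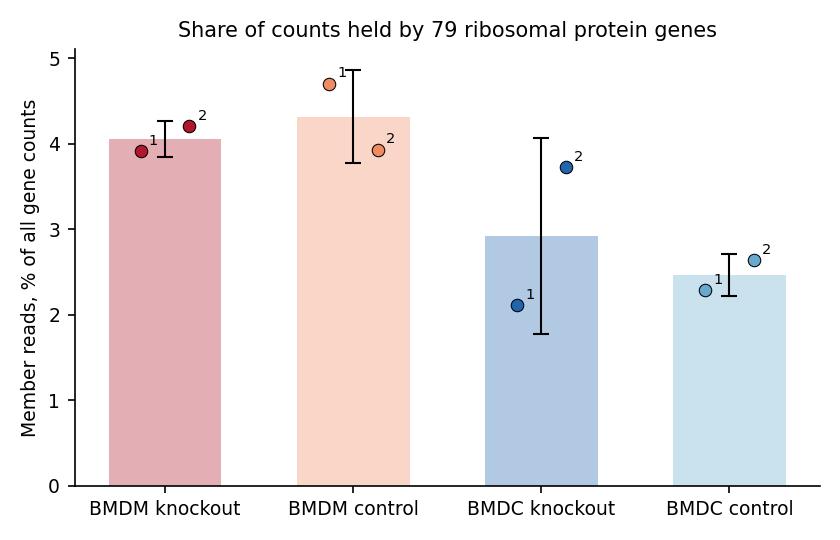
The bar plot gives the percentage of all gene counts that fell on the 79 members, with a bar for the mean of each group, a line for ± 1 SD and a numbered point for each library (n = 2 a group). The BMDM points lie between 3.91% and 4.7%, the BMDC points between 2.11% and 3.73%, with BMDC knockout 2 close to the BMDM.

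Nearly every ribosomal protein mRNA was read more in the BMDM controls than in the BMDC controls, with a fold of 1.97 at the median member. Of the 78 members tested, 77 had a log2 fold change above 0, with a median of 0.98 (quartiles 0.87 and 1.18), while the median of all 11671 genes tested was −0.02. In 74 of the 78, both BMDM control libraries were above both BMDC control libraries, against 36.3% of all tested genes. The order was the opposite in 1 member, Rpl24, and in 37.7% of all tested genes. Small subunit genes (median 1.04 over 31), large subunit genes (0.97 over 40) and stalk genes (0.89 over 3) had like values, and the 4 tested paralogs a median of 0.53. Split by mRNA length, the 24 shortest core genes had a median of 0.96, the middle 26 a median of 0.97 and the 24 longest a median of 1.05.

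The test across all genes nevertheless passed only 1 member, Rpl4, at an adjusted p under 0.05. This is 1 higher and 0 lower of 78 in this fit of all 8 libraries, where 4.67% of all genes passed as higher and 5.08% as lower. Rpl4, a large subunit protein that lines the exit tunnel (ENSMUSG00000032399, chromosome 9, 64080657 to 64085948 on the plus strand, as deposited), had 1472 and 1287 CPM in BMDM controls, against 598 and 737 CPM in BMDC controls. The means were 1380 ± 131 CPM in BMDM controls and 667 ± 98.3 CPM in BMDC controls (SD, n = 2 each), which gave a log2 fold change of 1.05 with an SE of 0.26 (Benjamini-Hochberg adjusted p = 0.0467, edgeR quasi-likelihood). The submitters' notes name 2 mouse builds, and which of them the deposited positions follow was not settled. Of all 78 members, 40 had an unadjusted p under 0.05.

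The fit takes 1 estimate of the spread from all 8 libraries, and so holds the gap between the BMDC knockouts. Without BMDC knockout 2, 74 of 78 members passed as higher in BMDM controls, against 19.3% of all genes. Without BMDC knockout 1, 74 also passed, against 19.8%. Leaving out any of the other 6 libraries left 0. In the 4 control libraries alone, a fit added after seeing the data, 71 of 77 passed, against 17.7% of all genes. DESeq2 in place of edgeR passed 21 of 78, against 8.97%. With the trend of counts on gene length removed, 7 of 78 passed, against 6.68%, and Rpl4 was not among them. In the 4 controls alone with that trend removed, 51 of 77 passed, against 17.4%. The median log2 fold change was 0.74 with the length trend removed and 0.73 in the controls alone with it removed.

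The 5 members with the largest fold change were Rpl13a, Rpl28, Rps29, Rplp1 and Rpl23, and none of them passed. Rpl13a, known in human monocytes as part of an interferon-induced complex that silences translation, had 7.72 and 7.07 CPM in BMDM controls, against 2.54 and 2.82 CPM in BMDC controls (log2 1.46, SE 0.38, adjusted p = 0.054 by edgeR). Rpl28 had 600 and 439 CPM in BMDM controls, against 176 and 220 CPM in BMDC controls (log2 1.39, SE 0.53). Rps29, a small zinc-binding protein, had 258 and 177 CPM in BMDM controls, against 80.6 and 89.5 CPM in BMDC controls (log2 1.36, SE 0.65). All of these BMDM control libraries lay above the BMDC ones. Rplp1 had 1629 and 1236 CPM in BMDM controls, against 489 and 635 CPM in BMDC controls (log2 1.35, SE 0.48). Rpl23, which can bind Mdm2, had 1032 and 816 CPM in BMDM controls, against 353 and 372 CPM in BMDC controls (log2 1.35, SE 0.43).

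At the other end, the 5 smallest fold changes among members of at least 1 CPM were those of Rps27l, Rpl23a, Rpl7l1, Rpl27 and Rpl34. Rps27l had 72.7 and 58.7 CPM in BMDM controls, against 59.1 and 60.2 CPM in BMDC controls (log2 0.14, SE 0.33), and its groups overlapped. Rpl23a had 5.93 and 3.82 CPM in BMDM controls, against 2.98 and 4.33 CPM in BMDC controls (log2 0.41, SE 0.42), also with overlap. Rpl7l1 had 158 and 147 CPM in BMDM controls, against 111 and 114 CPM in BMDC controls (log2 0.44, SE 0.22). Rpl27 (log2 0.52, SE 0.42) and Rpl34 (log2 0.56, SE 0.42) were still without overlap. Rpl22l1, at 11.9 and 7.97 CPM in BMDM controls against 3.14 and 4.97 CPM in BMDC controls, had a fold change inside the range of the core genes (log2 1.29, SE 0.36, adjusted p = 0.065 by edgeR). Rpl24 had only 0 and 2 reads in BMDM controls, against 10 and 5 in BMDC controls, so its difference is not detectable at this depth. Rack1, a ribosome-bound scaffold protein outside the name rule, had 1256 and 1026 CPM in BMDM controls, against 449 and 610 CPM in BMDC controls (log2 1.11, SE 0.33).

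**Figure D3:**
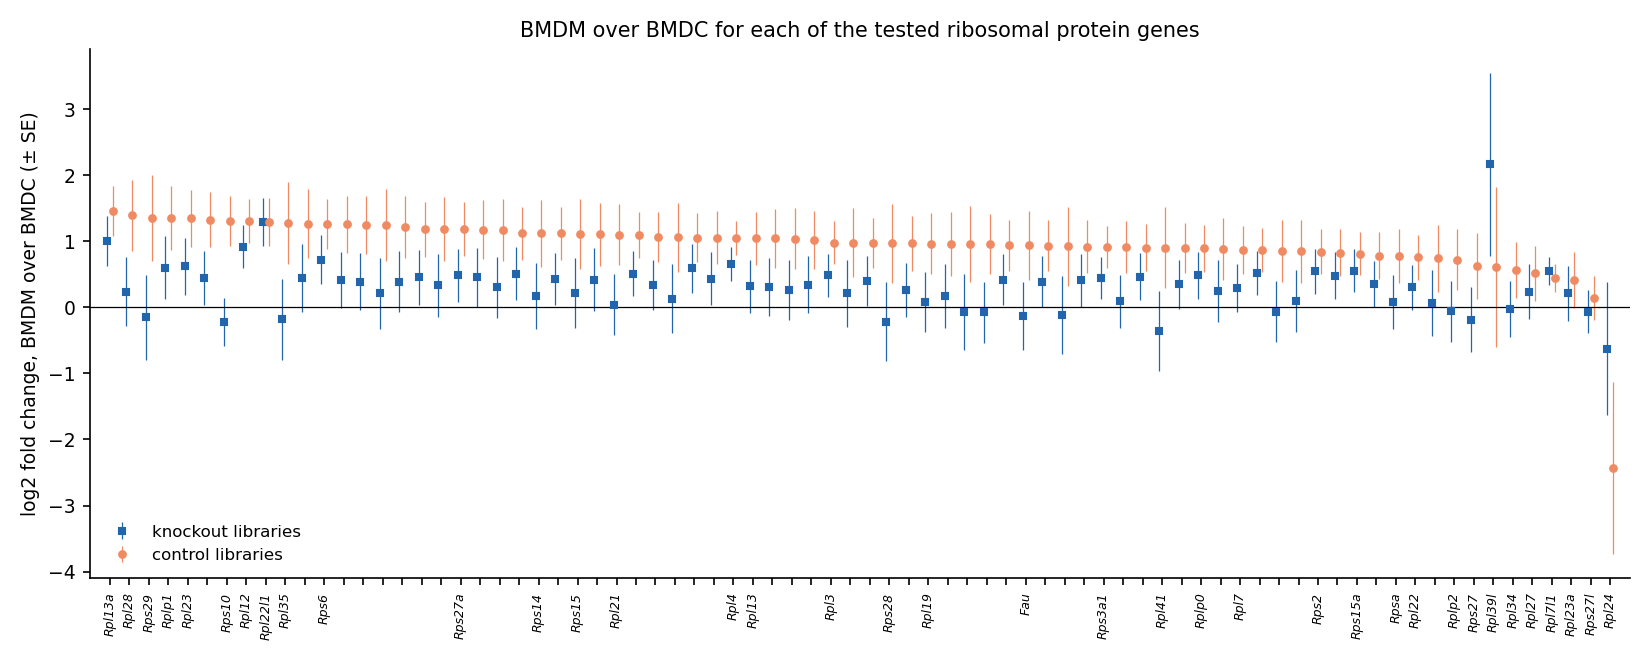
The plot of fold changes by gene gives the log2 fold change of BMDM over BMDC with its SE for the 78 tested members, squares for the knockout libraries and circles for the control libraries, ordered by the value in the controls, with names for genes described in the text. The circles lie near 1 for all but the last few genes, with Rpl24 below 0, and the squares lie lower, with a median of 0.34.

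Genes that work with the ribosome were set beside the members. These lists, like the members, were chosen with earlier results known. Their counts stand beside the 4.67% of all genes called higher and 5.08% called lower in this comparison. Of 22 other translation genes with a TOP-type 5' end that were tested, 2 rose and 0 fell in BMDM controls relative to BMDC controls, Eef2 and Eef1b2, both elongation factors, and the median log2 fold change was 0.65. Eef2 had 3363 and 3383 CPM in BMDM controls, against 1389 and 1727 CPM in BMDC controls (adjusted p = 0.042 by edgeR). Of 48 ribosome biogenesis genes 4 rose and 0 fell, with a median of 0.33; Nop56, a box C/D particle protein, had 90.6 and 64 CPM in BMDM controls, against 33.5 and 28.2 CPM in BMDC controls (adjusted p = 0.023 by edgeR). Of 77 mitochondrial ribosomal protein genes 3 rose and 0 fell, with a median of 0.46. Of 19 tested genes that control ribosomal protein mRNAs, such as mTORC1 subunits, Myc and Larp1, 0 passed, with 3 at an unadjusted p under 0.05 and a median of −0.19. Of 20 cell cycle genes, 1 rose and 0 fell, with a median of 0.42. Of 10 macrophage markers 5 rose and 0 fell, and of 9 tested dendritic cell markers 0 rose and 1 fell. The dendritic cell markers had log2 fold changes from −3.64 to 2.16. They summed to 344 and 328 CPM in BMDM controls, against 366 and 527 CPM in BMDC controls. Of 6 B and plasma cell markers 1 rose (Cd79b) and 0 fell. Granulocyte markers summed to 28.6 and 17.4 CPM in BMDM controls, against 75.6 and 176 CPM in BMDC controls, with Ly6g, Mpo, Prtn3 and Retnlg absent from the BMDM table. Mast cell and basophil markers summed to 2.1 and 1.95 CPM in BMDM controls, against 99.1 and 188 CPM in BMDC controls. Erythroid and megakaryocyte markers summed to 40.4 and 27.1 CPM in BMDM controls, against 804 and 1263 CPM in BMDC controls, nearly all of the BMDC sum being the platelet factor gene Pf4. Fibroblast markers summed to 2.23 and 1.38 CPM in BMDM controls, against 15.9 and 17 CPM in BMDC controls. These sums were scaled within each cell type, not over all 8 libraries. Sums of BMDM and BMDC are thus not on a common scale. The part of cells of these other types in the members' difference was not tested.

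In the BMDM, no ribosomal protein gene passed the test between knockout and control. Of 76 members tested, 0 passed in either direction, 0 had an unadjusted p under 0.05, and DESeq2 also passed 0. Of all genes 0.0454% passed as higher and 0.0635% as lower, and 311 of 11024 had an unadjusted p under 0.05. The median log2 fold change was −0.20 over the members and −0.01 over all genes, and 73 of the 76 members were below 0. The authors' deposited table likewise has 0 members with an adjusted p under 0.05 in either cell type.

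The spread between the 2 BMDM controls was wider than the difference between genotypes in most members. Relative to the mean of the 2 controls, their median log2 deviation was −0.26 in knockout 1 and −0.11 in knockout 2, against 0.20 in control 1 and −0.20 in control 2. Control 1 was the highest of the 4 BMDM libraries in 73 of the 79 members, and the quartiles within it were 0.17 and 0.22. The gap between the 2 controls exceeded that between the genotype means in 74 of 79 members. Without control 1 the median fold change was 0.02, and without control 2 it was −0.36. No overlap between genotypes was seen in 5 members, all lower in knockouts (Rpl3, Rpl4, Rps10, Rps12 and Rps27), and in 0 members that were higher. Of all tested genes, 13.6% were lower and 13.1% higher without overlap. Rps27 had 156 and 156 CPM in BMDM knockouts, against 221 and 162 CPM in BMDM controls (log2 −0.30, SE 0.17). Rpl4 had 1084 and 1240 CPM in BMDM knockouts, against 1472 and 1287 CPM in BMDM controls (log2 −0.25, SE 0.16).

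The lowest fold change in BMDM knockouts was that of Rpl21, with 101 and 124 CPM in knockouts, against 164 and 115 CPM in controls (log2 −0.30, SE 0.17). Rps14, a small subunit gene often lost in a myelodysplastic syndrome of humans, had 602 and 726 CPM in knockouts, against 907 and 708 CPM in controls (log2 −0.28, SE 0.17). Rpl13 had a like value (log2 −0.28). In all of these but Rps27 the genotypes overlapped. The highest fold changes were those of the low genes Rpl23a (log2 0.22, SE 0.30) and Rpl13a (log2 0.17, SE 0.26), then Rpl7l1 at 154 and 160 CPM in knockouts, against 158 and 147 CPM in controls (log2 0.04, SE 0.16). Of the related lists, 0 of 22 other TOP genes (median −0.13), 0 of 48 ribosome biogenesis genes (−0.04) and 0 of 77 mitochondrial ribosomal protein genes (−0.08) passed edgeR's test. At an unadjusted p under 0.05 these counts were 0, 0 and 1.

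**Figure D4:**
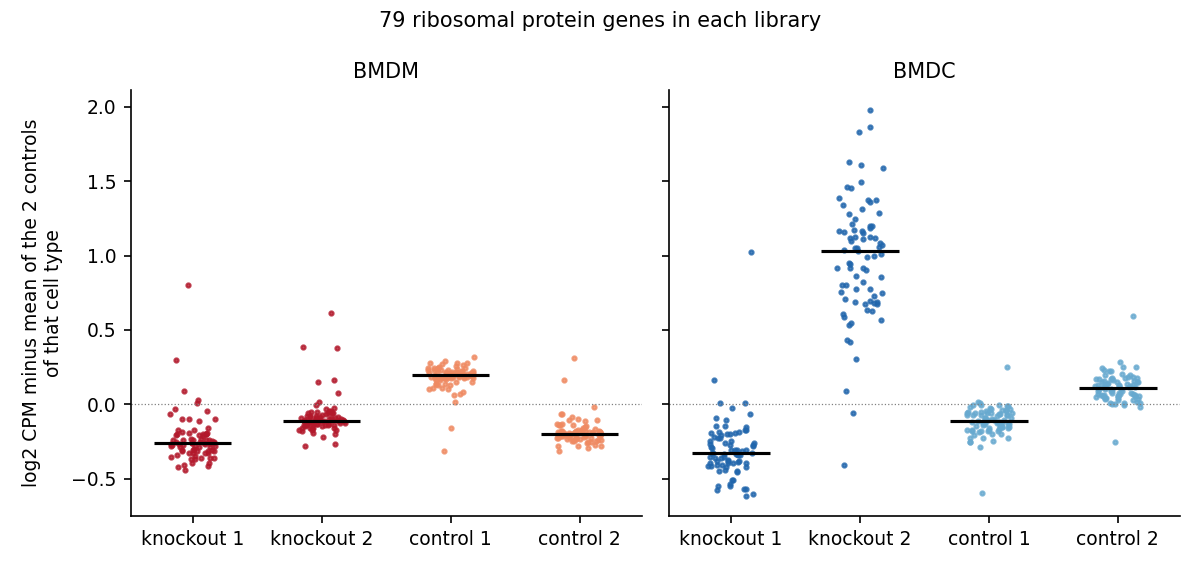
The plot of deviations gives, for each library, the log2 CPM of the 79 members minus the mean of the 2 controls of that cell type, 1 point a gene with a line at the median. The BMDM medians lie between −0.26 and 0.20, and the BMDC medians at −0.33 and 1.03 in knockouts 1 and 2 and −0.11 and 0.11 in the controls.

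In the BMDC, the 2 knockout libraries lay on opposite sides of the controls. In knockout 2, the members had a median log2 deviation of 1.03 from the control mean, and 77 of 79 were above that mean. In knockout 1 the median was −0.33, and 4 of 79 were above it. Knockout 2 was the highest of the 4 BMDC libraries in 77 members, and knockout 1 the lowest in 67. The log2 ratio of knockout 2 to knockout 1 had a median of 1.31. In 77 of 79 members this gap exceeded the difference between the genotype means. Knockout 2 was above all 4 BMDM libraries in 28 members, within their range in 37 and below them in 14. The same counts over all genes are not given here, so these numbers describe the members only.

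By the test, 0 of 77 members passed in BMDC knockouts, 1 had an unadjusted p under 0.05 (Rps10), and DESeq2 passed 0. Of all genes 0% passed as higher and 0% as lower, with 128 of 11357 at an unadjusted p under 0.05. The median log2 fold change was 0.51 over the members, with 75 of 77 above 0, and 0.02 over all genes. Without knockout 2 it was −0.34 with 0 members called, and without knockout 1 it was 1.03 with 47 of 77 called higher, against 12.7% of all genes. With 1 knockout library left, that library is assumed to vary like the controls. No overlap between genotypes was seen in 2 members that were higher, Rpl13a and Rps10, and in 0 that were lower, where 12.6% of all genes were higher and 12.6% lower.

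The largest deviations in knockout 2 were those of Rps29, Rpl35 and Rpl41. Rps29 had 62.4 and 340 CPM in BMDC knockouts 1 and 2, against 80.6 and 89.5 CPM in BMDC controls (log2 1.23, SE 0.75). Rpl41, the shortest ribosomal protein, had 355 and 1728 CPM in knockouts, against 474 and 486 CPM in controls (log2 1.11, SE 0.73). Rpl35 had 8.58 and 41.4 CPM in knockouts, against 10.8 and 11 CPM in controls (log2 1.18, SE 0.71). In all 3 genes only knockout 2 was above the controls. Rpl28 had 166 and 600 CPM in knockouts, against 176 and 220 CPM in controls (log2 0.95, SE 0.63). The smallest fold changes were those of Rpl7l1 (log2 −0.07, SE 0.35), Rpl22l1 (log2 −0.06, SE 0.52) and Rps15a (log2 0.06, SE 0.44), then Rpl4 (log2 0.14, SE 0.40) and Rps2 (log2 0.15, SE 0.47). Rps2 had 542 and 1067 CPM in knockouts, against 662 and 792 CPM in controls. The 5 paralogs had a median deviation of 0.09 in knockout 2, against 1.05 for the 74 core genes.

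Rps10 was above the controls in both BMDC knockouts. It had 3.81 and 5.01 CPM in BMDC knockouts, or 76 and 72 reads, against 1.41 and 1.95 CPM in BMDC controls, or 26 and 40 reads. Its log2 fold change was 1.39 (SE 0.56, unadjusted p = 0.045, adjusted p = 0.97 by edgeR). In the BMDM it had 3.57 and 3.97 CPM in knockouts, against 4.21 and 4.15 CPM in controls. It is one of the low core genes whose exons overlap another gene, and 92.4% of its 50-base stretches occur in another gene's transcripts, so the source of its reads is uncertain. Rpl13a, the other BMDC member without overlap, had 3.01 and 5.29 CPM in knockouts, against 2.54 and 2.82 CPM in controls (log2 0.62, SE 0.55).

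The deviation in knockout 2 went with the length of the principal mRNA within the core genes, and with deposited gene length among other genes. Over the 74 core genes, which share the same libraries, it had a Spearman correlation of −0.43 with the length of the principal mRNA, and in knockout 1 the correlation was 0.52. The 24 core genes with the shortest mRNAs had a median deviation of 1.17 in knockout 2, the middle 26 one of 0.99 and the 24 longest one of 0.89. Among genes that are no members, the quintile of shortest gene length had a median deviation of 0.67 in knockout 2 and the quintile of longest −0.65. The 53 members in that shortest quintile had a median of 1.11. In the second quintile 17 members had a median of 0.92, against 0.21 in the other genes. In the third, 5 members had 1.17, against −0.03, and in the fourth, 2 members had 0.67, against −0.29. With the length trend of the other genes removed, the median fold change of the members in BMDC knockouts was 0.13. The cause of the trend was not tested.

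**Figure D5:**
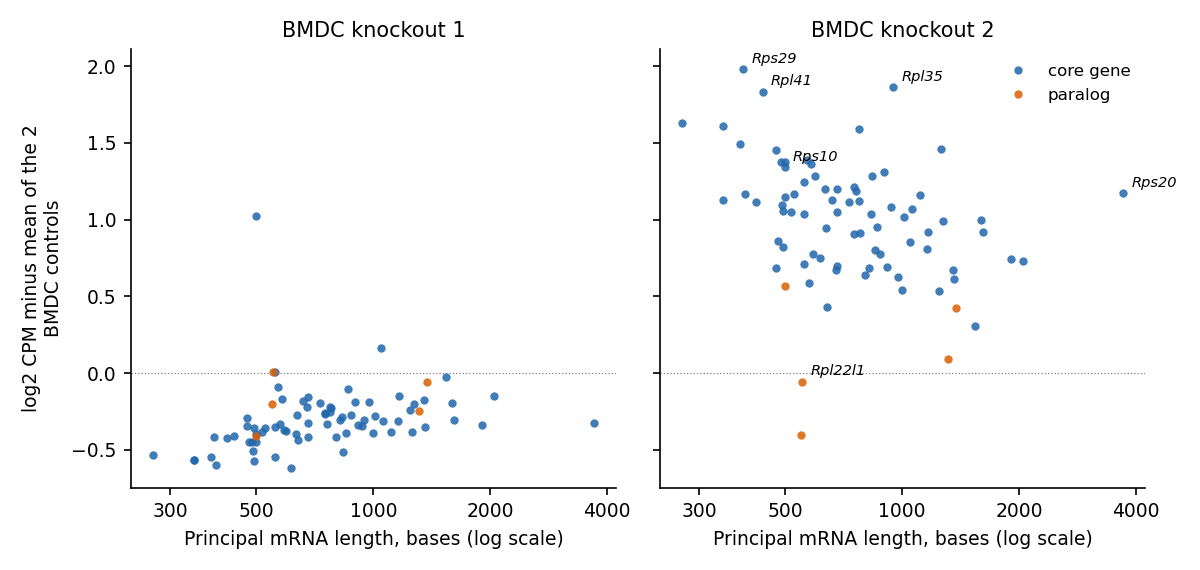
The plot of deviation against length gives the log2 CPM of each member minus the mean of the BMDC controls, against the length of its principal mRNA (log axis), for BMDC knockout 1 on the left and knockout 2 on the right. Core genes lie below 0 in knockout 1, except Rps10, Rpl13a and Rpl23a, and above 0 in knockout 2. In knockout 2 their values tend to fall with length (Spearman correlation −0.43), though Rpl35, at 946 bases, is among the highest. The paralog Rpl22l1 lies near 0 in both.

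Other gene groups also differed between the BMDC libraries. The 18 tested interferon-stimulated genes had a median log2 fold change of 2.30 in BMDC knockouts with 0 past edgeR's threshold and 3 at an unadjusted p under 0.05, and a median deviation of 3.29 in knockout 2. The 11 dendritic cell markers, of which 1 was at 0 in each BMDC library, summed to 606 and 1303 CPM in BMDC knockouts, against 366 and 527 CPM in BMDC controls, and the 10 macrophage markers to 4855 and 9156 CPM in BMDC knockouts, against 5453 and 4100 CPM in BMDC controls. Within the macrophage list Cd68 had 1054 and 3847 CPM in knockouts, against 1364 and 1217 CPM in controls, and Fcgr1 had 97.3 and 1554 CPM in knockouts, against 65.6 and 130 CPM in controls, while Adgre1 (1708 and 1341 CPM in knockouts), Marco (203 and 72.6 CPM) and Mrc1 (49 and 26 CPM) were lower in knockout 2 than in knockout 1. The 6 B and plasma cell markers summed to 3.71 and 30.6 CPM in knockouts, against 1.23 and 3.96 CPM in controls, with 2 of 6 at 0 in control 1. The 6 erythroid and megakaryocyte markers listed summed to 1373 and 3236 CPM in knockouts, against 804 and 1263 CPM in controls. Pf4 alone had 1315 and 3176 CPM in knockouts, against 778 and 1228 CPM in controls, while the erythroid gene Hba-a1 had at most 0.557 CPM in a BMDC library. The 6 fibroblast markers summed to 20.6 and 6 CPM in knockouts, against 15.9 and 17 CPM in controls. The 20 cell cycle genes summed to 549 and 355 CPM in knockouts, against 340 and 398 CPM in controls. By gene, their median deviation was 0.97 in knockout 1 and 0.66 in knockout 2, against −0.27 and 0.27 in the controls. Their median log2 fold change was 0.96, with 0 past edgeR's threshold and 2 at an unadjusted p under 0.05. Mitochondrially encoded transcripts took 1.78% and 1.41% of counts in knockouts, against 1.04% and 2.04% in controls, with overlap. Sums were scaled within the BMDC and single genes over all 8 libraries, so these scales differ. The part of these gene groups in the members' values was not tested. The 22 other TOP genes had a median log2 fold change of 0.07, the 48 ribosome biogenesis genes −0.21, the 19 tested mTORC1, Myc and TOP-binding genes −0.07, and the 77 mitochondrial ribosomal protein genes 0.35, with 0 called and 0 at an unadjusted p under 0.05 in each list. Rack1 had 422 and 731 CPM in BMDC knockouts, against 449 and 610 CPM in BMDC controls.

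In the knockout libraries, no member passed between BMDM and BMDC. Of 78 members, 0 passed in either direction, with 5 at an unadjusted p under 0.05 and 1 passing with DESeq2 (Rpl22l1), where 3.38% of all genes passed as higher and 4.64% as lower. The median log2 fold change was 0.34 over the members and −0.09 over all genes. In 14 members both BMDM knockouts were above both BMDC knockouts, against 22.1% of all genes. Without BMDC knockout 2, 73 of 78 members passed as higher, against 15% of all genes, with a median of 1.17. Without BMDC knockout 1, 1 passed as higher (Rpl22l1), against 15.6%, and 8 as lower, against 16.7%, with a median of −0.15. Those 8 were Rps29, Fau, Rpl38, Rpl36, Rpl35, Rps28, Rps27 and Rpl41.

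Among members with a mean of at least 1 CPM, which leaves out Rpl39l and Rpl24, the largest fold changes in knockouts were those of Rpl22l1, Rpl13a and Rpl12. Rpl22l1 had 10.5 and 8.53 CPM in BMDM knockouts, against 3.91 and 3.83 CPM in BMDC knockouts (log2 1.29, SE 0.36, adjusted p = 0.076 by edgeR). Its log2 fold change in the controls was 1.29 too. Rpl12, a protein at the base of the stalk, had 510 and 546 CPM in BMDM knockouts, against 202 and 356 CPM in BMDC knockouts (log2 0.92, SE 0.33). Rps6, the target of S6 kinase, had 799 and 927 CPM in BMDM knockouts, against 336 and 713 CPM in BMDC knockouts (log2 0.72). The lowest values among them were those of Rpl41 (log2 −0.36, SE 0.61), Rps10 (log2 −0.22, SE 0.36) and Rps28 (log2 −0.22, SE 0.59). Rps28 had 131 and 134 CPM in BMDM knockouts, against 54.5 and 253 CPM in BMDC knockouts, so the BMDC libraries lay on both sides.

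How far the effect of the knockout in BMDM differed from that in BMDC (BMDM minus BMDC) was tested in the same fit. Of 78 members 0 passed in either direction, with 1 at an unadjusted p under 0.05 (Rps10) and 0 by DESeq2, and 0% of all genes passed as higher and 0% as lower, with 225 of 11671 at an unadjusted p under 0.05. The median difference was −0.70 over the members and −0.03 over all genes. Without BMDC knockout 2 it was 0.17 with 0 called, and without BMDC knockout 1 it was −1.22, with 63 of 78 members called lower, against 15.1% of all genes. Rps10 had a difference of −1.53 (SE 0.52, adjusted p = 0.84 by edgeR), Rps29 one of −1.51 (SE 0.91) and Rpl35 one of −1.45 (SE 0.87). A p that misses the threshold does not show that the cell types responded alike.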

How the data were processed

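Per the labels' protocols and the submitters' processing notes, the authors trimmed reads with cutadapt, aligned them to the mouse genome and counted reads per gene with HTSeq; versions, aligner and strand setting are not given in the sources used here. They deposited whole-number counts, FPKM, gene length and an adjusted p-value of their own comparison in 1 table for each cell type. The deposited FPKM equal counts per kilobase of deposited gene length and table total. Members and gene lists were chosen with earlier results of these data known.

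Counts were tested with edgeR 4.0.16 (R 4.3.3): TMM factors, filterByExpr at a minimum count of 10, quasi-likelihood test, Benjamini-Hochberg adjustment over all genes, threshold 0.05. Knockout was compared with control within each table. Cell types, and the difference between knockout effects, were tested in 1 fit of all 8 libraries over genes in both tables, so levels across tables assume like processing. CPM of single genes use TMM factors of that fit. Sums over gene lists and deviations use TMM factors of the 4 libraries of each cell type. SE is the log2 fold change over the root of F. Deviations are log2(CPM + 0.5). Alternatives used DESeq2 1.42.0, limma 3.58.1 voom, other scalings and filters, removal of the count trend on gene length (lowess span 0.3), the replicate block and each library left out. The script was tested on simulated data. Named genes are the 5 largest and 5 smallest fold changes of each comparison at a mean of at least 1 CPM, members past the threshold, the 5 highest and 5 lowest levels, paralogs with parents, stalk genes, ubiquitin fusions, Rpsa and Rack1; others were named after their values were seen, and some members are counted but not reported by name. Shares have 95% Wilson intervals.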

Additional observations from a re-analysis of the deposited data

Results flagged for a closer look

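On the scale of TMM-normalised CPM, Rps10 was higher in both BMDC knockouts than in both BMDC controls and lower in both BMDM knockouts than in both BMDM controls. It had 76 and 72 reads in BMDC knockouts, against 26 and 40 reads in BMDC controls, and 58 and 68 reads in BMDM knockouts, against 61 and 64 reads in BMDM controls. In CPM the BMDM values were 3.57 and 3.97 in knockouts, against 4.21 and 4.15 in controls, while the BMDM read numbers themselves overlap. Its knockout effect in BMDM minus that in BMDC came to −1.53 on the log2 scale (SE 0.52, unadjusted p = 0.0193, adjusted p = 0.84 by edgeR), so it failed the correction over all genes. Its log2 fold change was 1.39 in BMDC knockouts (SE 0.56) and −0.15 in BMDM knockouts (SE 0.32).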

How the results depend on the processing

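The gap between the BMDC knockouts limits the tests, and the library left out decides several counts. Over fits without 1 library, members called ranged from 0 to 47 in BMDC knockouts, 0 to 74 for BMDM over BMDC in controls, 0 to 73 in knockouts and 0 to 63 for the difference between knockout effects. The highest counts came without BMDC knockout 1, except 73, which came without BMDC knockout 2, and 74, which came without either. The median log2 fold change ranged from −0.34 to 1.03 in BMDC knockouts, −0.36 (without BMDM control 2) to 0.024 (without BMDM control 1) in BMDM knockouts, −0.15 to 1.17 for BMDM over BMDC in knockouts and −1.22 to 0.17 for the difference. In the knockout comparison of cell types, 15 of 78 members were below 0 with all libraries and 1 of 78 without BMDC knockout 2; in BMDC knockouts 75 of 77 were above 0 with all libraries and 2 of 78 without it. Of the genes the naming rule picks in that comparison, 6 turned from below 0 to called as higher without BMDC knockout 2, and over fits without 1 library they ranged from −0.62 to 0.94 (Rplp2), −0.75 to 1.07 (Fau), −0.89 to 1.36 (Rpl35), −0.91 to 1.28 (Rps28), −0.78 to 0.93 (Rps27) and −1.07 to 1.20 (Rpl41).

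For BMDM over BMDC in controls, 21 members were called with DESeq2, 2 with limma-voom, 2 with library totals, 2 with no filter, 2 with the 1 CPM filter and 7 with the length trend removed (median 0.74). Chosen after seeing the data, the controls alone gave 71, the controls alone without the trend 51 (median 0.73), and the fit without both the trend and BMDC knockout 2 gave 67 (median 0.74). In knockouts, DESeq2, library totals and the trend removed gave 1 each, where 763, 332 and 604 of all 11671 genes were called higher. The difference between knockout effects had a median of 0.12 without the trend and BMDC knockout 2. Library totals moved the median of all genes to −0.21 for controls, −0.10 for BMDC knockouts, 0.10 for BMDM knockouts and 0.19 for the difference. They put the members' median at 0.29 in BMDC knockouts, −0.087 in BMDM knockouts and −0.36 for the difference, and removing the length trend put it at 0.13 in BMDC knockouts and −0.29 for the difference. Without the 20 most abundant other genes the members' share was 4.999% in BMDM knockouts, 5.65% in BMDM controls and 2.95% in BMDC controls. Per principal transcript length the median level was 518. The cause of these shifts was not tested, beyond the fewer samples in some fits.

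The replicate block gave 0 members for BMDM over BMDC in controls (median 1.01), and 0 in every other comparison. Same-numbered deviations correlated at 0.000255 in BMDC, −0.232 in BMDM, 0.0889 between controls and 0.308 between knockouts. With 2 libraries in each group, these values cannot settle whether replicate numbers pair the samples. With crossed numbers, 0 members passed in BMDM knockouts.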
